A study of Mus musculus with 7 samples.

Results

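The transcription factors that build the T lineage were followed by symbol: Bcl11b, Satb1, Myb, Tcf7, Lef1, Gata3, Runx1, Runx3, Tox and Ikzf1, in RNA from the carotid artery of mice. Every probe set of the Affymetrix Mouse 430 2.0 array whose annotation gives exactly 1 of these symbols was taken, which found 28 of 45101 probe sets and 9 of the 10 genes. Tcf7 had no probe set listed under its symbol in the annotation used here and was not analysed. The genes were proposed with differences between the groups of this series already known, so their differences are given as descriptions, without p-values.

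The study crossed mice with and without high plasma cholesterol in both directions, to ask how the offspring differ in susceptibility to atherosclerosis. All 7 samples came from ApoE-/+ offspring, which carry 1 null allele of the gene for apolipoprotein E. The wild-type mother group (n = 3) had a normocholesterolemic wild-type mother and an ApoE-/- father, and the ApoE-null mother group (n = 4) had a hypercholesterolemic ApoE-/- mother and a wild-type father. The 2 crosses differ in both parents, so an effect of the mother and one of the father cannot be told apart. Sex, age, strain, diet and litter were not among the labels used here, and the labels do not say whether the arrays are different animals. Any error given therefore covers the spread between these arrays, which may be technical. Wild-type mother 2 is an exception, since its Xist signal, given below, shows a different source from the other arrays.

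Progenitors that enter the T lineage do so under Notch signals, and Tcf7, Gata3 and then Bcl11b, a zinc finger protein needed for T cell commitment, are switched on in turn. Myb, Runx1 and Ikzf1 already act in blood progenitors, while Lef1 works beside Tcf7 at the end of Wnt signalling, and Satb1 and Tox shape chromatin in developing thymocytes. Runx3 is best known for the CD8 lineage. An artery wall is made mainly of smooth muscle, endothelium and fibroblasts, and T cells are a minor component of it and of the tissue around it.

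The promoters of Bcl11b, Satb1 and Myb are shown because only these genes had a probe set above the signal filter (a mean signal above 23.6) whose 7 arrays did not overlap between the groups; this choice was made after the values were seen. Each line gives the 250 bases before the most upstream RefSeq start, 5′ to 3′ on the strand of the gene. Capitals mark matches on either strand to 4 short cores of the factors themselves: TGTGGT for RUNX, AACNG for MYB, GATAA for GATA and CTTTG for TCF and LEF. Overlapping matches run together. The windows lie on chromosomes 12 (Bcl11b), 17 (Satb1) and 10 (Myb), and the decimal in each chromosome label has no meaning.
Bcl11b, chr12.0:108003415-108003664, - strand, GRCm38.p6: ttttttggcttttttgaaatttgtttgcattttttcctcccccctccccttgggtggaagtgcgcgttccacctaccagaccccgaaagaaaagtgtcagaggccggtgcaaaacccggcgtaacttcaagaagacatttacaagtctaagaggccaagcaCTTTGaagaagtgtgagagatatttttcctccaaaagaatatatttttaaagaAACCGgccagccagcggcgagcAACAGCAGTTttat
Satb1, chr17.0:51833291-51833540, - strand, GRCm38.p6: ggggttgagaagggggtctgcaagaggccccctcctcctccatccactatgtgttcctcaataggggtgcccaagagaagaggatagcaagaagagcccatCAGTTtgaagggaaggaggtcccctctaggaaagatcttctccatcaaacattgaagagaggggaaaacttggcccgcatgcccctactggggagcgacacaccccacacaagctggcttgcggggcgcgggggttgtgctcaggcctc
Myb, chr10.0:21160985-21161234, - strand, GRCm38.p6: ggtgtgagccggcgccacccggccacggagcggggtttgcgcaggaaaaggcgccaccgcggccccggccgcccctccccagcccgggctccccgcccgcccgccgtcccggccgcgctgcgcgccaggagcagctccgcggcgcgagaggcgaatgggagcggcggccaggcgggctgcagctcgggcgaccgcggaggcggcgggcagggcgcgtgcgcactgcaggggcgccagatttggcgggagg
RefSeq windows were matched for 9 of the 10 symbols. Bcl11b held 3 matches to the MYB core and 1 to the TCF and LEF core, Satb1 held 1 to the MYB core, and Myb held none of the 4. Of all 32851 windows of this length, 74.2% held the MYB core, 48.6% the TCF and LEF core, 22.6% the GATA core and 14.0% the RUNX core. The Myb window had a GC content of 81.2%, against 58.0% for Satb1, 44.8% for Bcl11b and a median of 52.4% over all windows. A match is a run of letters and not a measured binding site.

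Values are MAS5 signals on a linear scale, in the order of arrays 1 to 3 of the wild-type mother group and 1 to 4 of the ApoE-null mother group. A log2 difference is the mean of log2(signal + 2) with an ApoE-null mother minus that with a wild-type mother, with its standard error (SE) from a limma fit over 27027 probe sets. A signal was taken as above background where it exceeded the highest of 27 probe sets for bacterial transcripts on the same array, a ceiling of 10 to 22. Smooth muscle and endothelial markers were above it on every array, in 7 of 7 genes each. Their summed signals overlapped between the groups, at 24430 to 31970 against 25360 to 31090 for smooth muscle and 3287 to 4470 against 3538 to 5037 for endothelium. Wild-type mother 2 stood apart. Its Xist signal was 41.2 where the others had 5174.1 to 5930.9. Xist RNA is made in female cells, so this array read as male and the others as female. The summed signal of 6 skeletal muscle genes was 2042 where the others had 90.7 to 195.7. Its ratio of 3 prime to 5 prime Gapdh signal, 7.80, and its background ceiling were the highest of the 7 arrays. Differences without it are therefore given for the strongest probe set of each gene and for the marker lists and regulators.

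Bcl11b was higher with an ApoE-null mother on its strongest probe set, by 3.34-fold on the log2(signal + 2) scale. In whole tissue, fewer cells of a type and less RNA per cell cannot be told apart. The added 2 makes ratios of low signals smaller, and where signals are at background the size of a fold is uncertain in either direction. On 1435227_at the wild-type mother arrays read 129.2, 50.5 and 25.9, and the ApoE-null mother arrays read 157.9, 250, 168.9 and 197.1. Each of the latter 4 lay above all 3 of the former, and wild-type mother 1 came closest to them. Group means were 68.5 ± 54.0 (SD, n = 3) and 194 ± 41.1 (SD, n = 4), and the log2 difference was 1.74 (SE 0.41). Leaving out wild-type mother 2 gave 1.67. The lowest value over arrays left out was 1.21, when wild-type mother 3 was dropped, and the highest was 2.33, when wild-type mother 1 was.

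The other Bcl11b probe sets were dimmer and gave the same sign. Probe set 1450339_a_at read 23.0, 5.3 and 2.9 against 81.9, 48.8, 15.6 and 52.9, and its groups overlapped through ApoE-null mother 3, the one array of its group at background. Its log2 difference was 2.23 (SE 0.64). On 1452966_at the signals were 27.3, 11.3 and 6.3 against 49.0, 36.5, 20.9 and 34.4, with a log2 difference of 1.27 (SE 0.48), and again only ApoE-null mother 3 overlapped the other group. With a wild-type mother, both probe sets were above background on array 1 only. Probe set 1438784_at stayed at 10 to 28.3 on all arrays and had a log2 difference of 0.11, which was -0.18 without ApoE-null mother 3.

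Satb1 encodes a chromatin organiser that is abundant in thymocytes, and all 5 of its probe sets gave a positive difference. Probe set 1416008_at read 312.5, 202.9 and 284.1 in the wild-type mother group, and 516.2, 418.2, 385.7 and 324.7 in the other. The groups did not overlap, although ApoE-null mother 4 was close to wild-type mother 1. Means were 267 ± 56.9 (SD, n = 3) and 411 ± 80.0 (SD, n = 4), which is 1.54-fold, or a log2 difference of 0.63 (SE 0.20), and 0.44 without wild-type mother 2.

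A larger separation was seen on Satb1 probe set 1436182_at, with 77.7, 27.7 and 56.0 against 149.6, 159.4, 108.2 and 130.7. Its groups were apart on every array, with a 2.67-fold difference (log2 1.41, SE 0.30, and 1.02 without wild-type mother 2). Probe set 1439449_at read 30.3, 40 and 32.7 against 81.0, 90.4, 46.7 and 72.9, a log2 difference of 1.01 (SE 0.27), again without overlap. On 1416007_at the signals were 78.2, 62.4 and 75.7 against 160.0, 119.2, 76.9 and 127.3, and ApoE-null mother 3 fell inside the range of the other group (log2 difference 0.69, SE 0.24). These 4 probe sets were above background on all 7 arrays, so the Satb1 differences did not rest on signals at background. The fifth, 1439315_at, read 7.3 to 39.5 and overlapped, and its log2 difference of 0.38 was -0.15 without wild-type mother 3.

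Myb, a DNA-binding factor of blood progenitors and immature thymocytes, had the highest log2 difference among the strongest probe sets. Probe set 1421317_x_at read 33.6, 2.5 and 10.2 in the wild-type mother group, and 70.0, 77.7, 62.4 and 95.4 in the other. Every ApoE-null mother array was higher than every array of the other group. Means were 15.4 ± 16.2 (SD, n = 3) and 76.4 ± 14.1 (SD, n = 4), with a log2 difference of 2.63 (SE 0.55), or 6.2-fold. Wild-type mother 2 was below its ceiling of 22 and wild-type mother 3 lay just above its ceiling of 10, so the size of this fold rests on signals near background. On the log2 scale it was 1.89 when wild-type mother 2 was left out and 3.39 when wild-type mother 1 was. The suffix _x_at marks a probe set with some probes that also match other sequences.

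Probe set 1450194_a_at of Myb, which carries no such mark, read 24.1, 11.3 and 1.0 against 24.1, 37.9, 42.0 and 39.8. The groups met at 24.1, shared by wild-type mother 1 and ApoE-null mother 1 (log2 difference 1.88, SE 0.64, and 1.0 without wild-type mother 3). The third, 1422734_a_at, was at background on all 7 arrays, at 1.3 to 14.0.

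**Figure D1:**
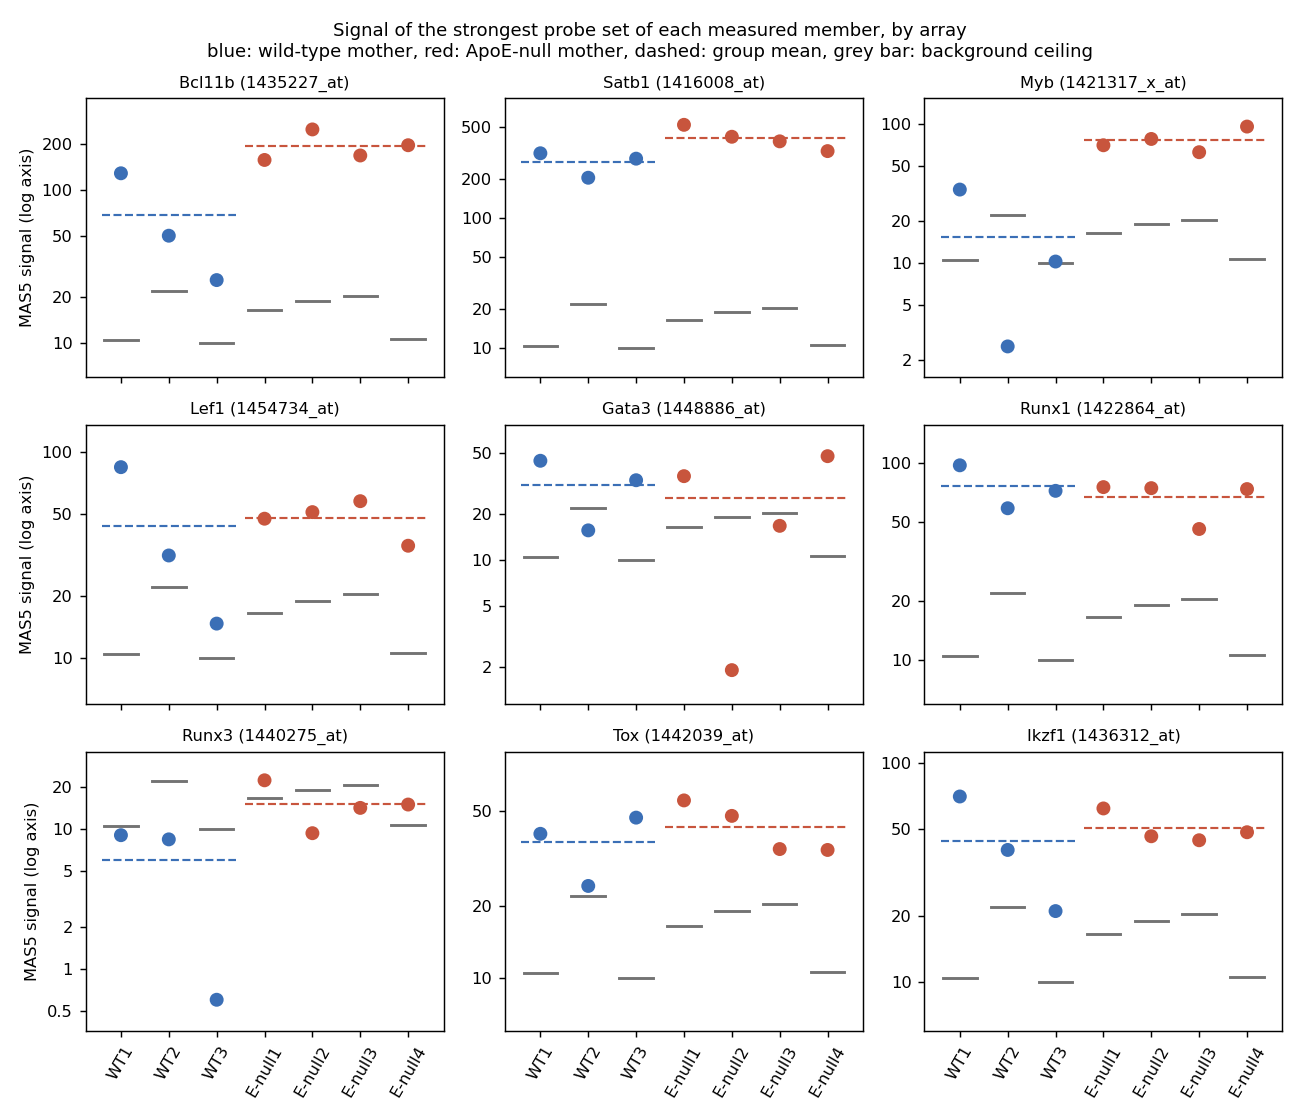
MAS5 signal (log axis) of the strongest probe set of each of the 9 measured genes on each array, WT1 to WT3 for the wild-type mother group in blue and E-null1 to E-null4 for the ApoE-null mother group in red. Dashed lines are group means and grey bars the background ceiling of each array; Bcl11b, Satb1 and Myb separate the groups above or near background, Runx3 separates them at background, and the other 5 overlap.

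Lef1 encodes an HMG box factor that binds beta-catenin, and its 2 probe sets disagreed in sign. Probe set 1454734_at read 84.0, 31.4 and 14.7 in the wild-type mother group, and 47.3, 50.9, 57.5 and 35 in the other. The wild-type mother group spanned the whole range of the other group, with wild-type mother 1 the highest of all 7 arrays. The log2 difference was 0.43 (SE 0.46), with a 95% interval of -0.58 to 1.44, and it was -0.13 without wild-type mother 3. Leaving out wild-type mother 2 instead gave 0.37. On 1421299_a_at the signals were 12.0, 22.3 and 7.2 against 0.5, 1.2, 8.4 and 8.9, at background on all 4 ApoE-null mother arrays (log2 difference -1.41).

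Gata3, needed from the earliest T cell stages and also expressed in sympathetic neurons, had 1 probe set. Its signals were 44.5, 15.6 and 33.2 against 35.3, 1.9, 16.7 and 47.7. Both groups held high and low arrays, and 3 of the 7 were at background. The log2 difference of -0.68 (SE 0.76) became 0.09 without ApoE-null mother 2 and -1.08 without wild-type mother 2. Across the arrays Gata3 did not follow Bcl11b: ApoE-null mother 2 had the highest Bcl11b signal and the lowest Gata3 signal.

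Runx1, a core-binding factor of blood progenitors, had 6 probe sets, of which 4 gave a positive and 2 a negative difference. The strongest, 1422864_at, read 96.8, 58.7 and 71.9 against 75.1, 74.2, 46.1 and 73.4. The groups overlapped, with the highest array in the wild-type mother group and the lowest in the other (log2 difference -0.17, SE 0.25, 95% interval -0.72 to 0.39, and -0.33 without wild-type mother 2). Probe sets 1452531_at and 1440878_at, also above background on all arrays, had log2 differences of 0.33 (SE 0.27) and -0.46 (SE 0.33). The other 3 were dim, with signals of 0.7 to 43.2 and differences of 0.08 to 0.43.

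Runx3, which silences Cd4 in the CD8 lineage, was near background throughout. Probe set 1440275_at read 9.0, 8.4 and 0.6 against 22.2, 9.3, 14.1 and 14.9. The groups did not overlap, yet no wild-type mother array and only 2 of 4 ApoE-null mother arrays exceeded their ceilings. Its log2 difference of 1.31 became 0.51 with a pseudocount of 16, and was 1.63 without wild-type mother 2. The other probe set, 1421467_at, read at most 4.9.

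Tox, an HMG box protein of thymocyte selection, overlapped on its 3 probe sets. Probe set 1442039_at read 40.2, 24.3 and 47.0 against 55.5, 47.8, 34.7 and 34.4, and both groups covered much the same range (log2 difference 0.22, SE 0.31, and -0.04 without wild-type mother 2). Differences on the others were 0.59 (SE 0.39) and -0.38. Ikzf1, which encodes the lymphoid factor Ikaros, read 70.3, 40.1 and 21.1 against 62.0, 46.3, 44.4 and 48.3 on 1436312_at. The highest and the lowest array both belonged to the wild-type mother group (log2 difference 0.33, SE 0.35). It was -0.09 when wild-type mother 3 was left out, and 0.34 when wild-type mother 2 was. Its second probe set was above background on 1 array.

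**Figure D2:**
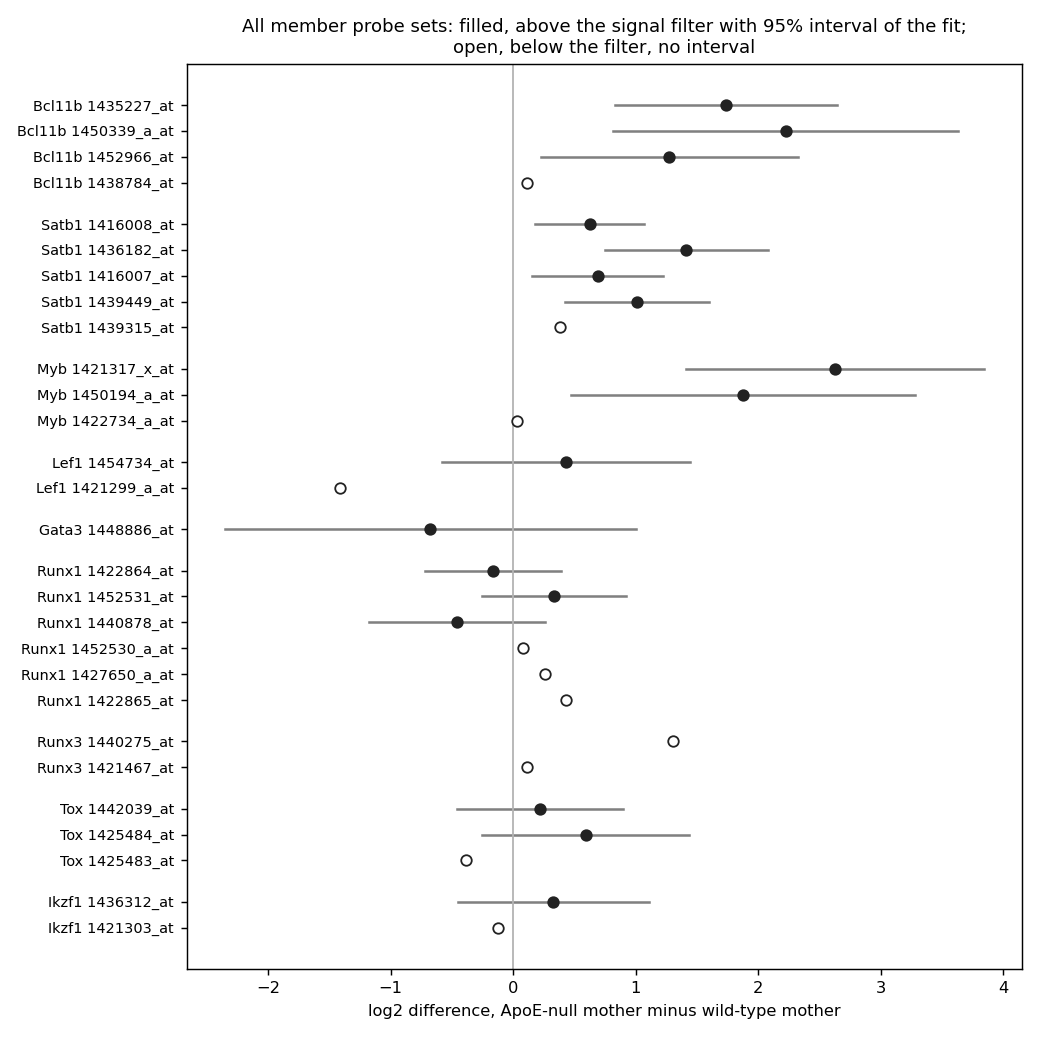
Log2 difference (ApoE-null mother minus wild-type mother) of all 28 probe sets, grouped by gene with the strongest first. Filled points passed the signal filter and carry the 95% interval of the limma fit, open points did not pass it; the probe sets of Bcl11b, Satb1 and Myb lie to the right of 0, and those of Lef1, Runx1, Tox and Ikzf1 fall on both sides.

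Of the 28 probe sets, 22 had a positive and 6 a negative difference, with a median of 0.36; over all 45037 probe sets other than controls, 51.3% were positive and the median was 0.01. The filter on low signals was passed by 17 of the 28. Of these 17, 0 passed the limma test at a Benjamini-Hochberg adjusted p of 0.05, which 0.0037% of the 27027 tested probe sets did, namely 1 probe set of the adenylyl cyclase gene Adcy1. At an unadjusted p under 0.05, 9 of the 17 were higher and 0 lower, where 4.3% of tested probe sets were higher and 3.96% lower, 8.25% in either direction. Groups did not overlap for 5 of the 17, against 8.02% of tested probe sets in either direction. In the limma fit with no filter, 10 of the 28 were higher and 1 lower at an unadjusted p under 0.05. Of all probe sets, 3.73% were higher and 3.27% lower at that threshold. Groups did not overlap for 6 of the 28, all higher with an ApoE-null mother, where 3.77% of all probe sets were higher without overlap and 3.24% lower. The 9 higher probe sets belonged to Bcl11b (3), Satb1 (4) and Myb (2). Bcl11b 1450339_a_at and 1452966_at passed the filter through the ApoE-null mother group, with means of 49.8 and 35.2 against 10.4 and 14.97. So did Myb 1421317_x_at and 1450194_a_at, with 76.4 and 35.95 against 15.4 and 12.1. The same held for Tox 1425484_at, which is not among the 9, with 29.5 against 20.1. All of their wild-type mother means lay below 23.6. The filtered counts, and the 17 itself, therefore depend in part on the group difference. The counts with no filter are free of this. All the counts above come from the contrast known when the genes were proposed, and several probe sets read the same transcript. Nothing is read from them beyond the description.

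None of these genes was called with all 7 arrays, and calls appeared only when wild-type mother 1 was left out. Without it, Bcl11b (1435227_at) and Myb (1421317_x_at) passed the limma test after Benjamini-Hochberg adjustment, 2 of 18 probe sets called in all. For both genes it was the array of its group nearest the other group. Leaving it out therefore widens the difference, and nothing is read from these calls. None of the 28 passed when any other array was left out. In 8 of the 9 measured genes the strongest probe set had its highest wild-type mother signal on this array, Tox being the exception, and over all 28 probe sets this held for 18, or 64.3%, where it held for 32.7% of all probe sets. Wild-type mother 3 had the lowest signal of its group in 12 of 28 probe sets, or 42.9%, against 31.9% of all probe sets. The order was uneven in the ApoE-null mother group too, where array 1 was the highest in 12 of 28 (42.9%, against 29.5% of all probe sets) and array 3 the lowest in 12 of 28 (42.9%, against 23.5%).

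**Figure D3:**
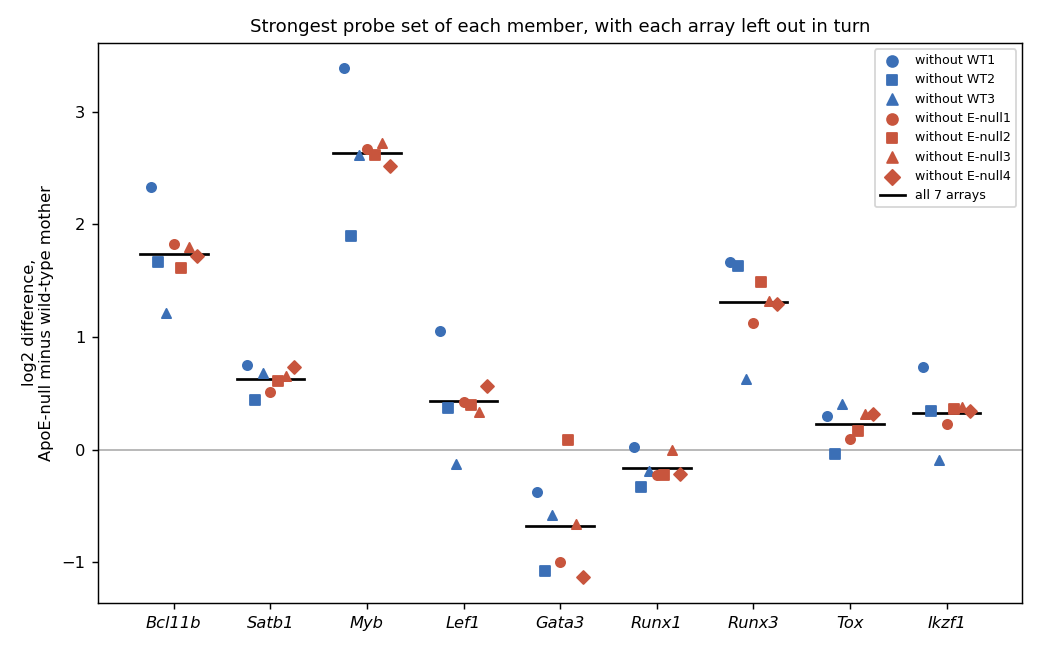
Log2 difference of the strongest probe set of each measured gene with all 7 arrays (black line) and with each array left out (points; blue for an array of the wild-type mother group, red for one of the ApoE-null mother group). Bcl11b, Satb1, Myb and Runx3 stay above 0 throughout, while Lef1, Gata3, Runx1, Tox and Ikzf1 cross 0 when 1 array is left out.

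Markers of T cells and thymocytes were read on the same arrays, from lists written with earlier results known. Of 12 T cell markers with a probe set, 9 had a positive difference, the median was 0.88 and 4 were above background on all arrays. Without wild-type mother 2, 10 were positive and the median was 0.97. Cd3d, a subunit of the T cell receptor complex, read 4.4, 20.8 and 4.0 against 56.3, 49.5, 25.2 and 36.0. All 3 wild-type mother arrays were at background for it, while Cd4 was at background on all 7 arrays. The summed signal overlapped, at 684.4 to 814.7 against 631.4 to 809.9. Zap70 and Cd8a were the 2 brightest of the list, and the other 10 summed to 102.9 to 182.5 against 237.9 to 362.8, without overlap, a split chosen after the values were seen. Negative differences were seen for 3 of the markers, Cd2 (-0.33), Cd8a (-0.15) and the kinase gene Zap70 (-0.60). The strongest probe set of Zap70 read 451.7 to 511.2 in the wild-type mother group and 287.9 to 360.2 in the other, without overlap. Of 9 thymocyte markers 8 were positive, with a median of 0.99 and summed signals of 811.5 to 1797 against 1819 to 2746. Without its 2 brightest, Cd1d1 and Cplx2, the other 7 summed to 65.4 to 169.3 against 382.4 to 675.4. Cplx2 was the 1 thymocyte marker with a negative difference (-0.57). Without wild-type mother 2 again 8 were positive, with a median of 1.3. Rag1, which cuts the antigen receptor loci, read 48.3, 0.8 and 10.3 against 174.4, 145.8, 133.8 and 139.2, so that wild-type mother 1 was the highest of its group for Rag1 as for Bcl11b and Myb. Rag2 was at background on all arrays.

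Other cell types were given by the same measure. Of 9 thymic epithelial markers 6 were positive (median 0.42, summed signals 208.5 to 313.6 against 208.8 to 449.4), Psmb11 and Aire were at background on all arrays, and Foxn1, the defining factor of that epithelium, read 27.9, 28.1 and 32.2 against 20.6, 21.9, 26.7 and 19.9. Of 6 B cell markers 4 were positive (median 0.34), with sums of 621.9 to 751.2 against 706.3 to 936.6 and Cd79a at background on all arrays. Natural killer and innate lymphoid markers were positive in 4 of 7 (median 0.10, sums 158.3 to 197.0 against 179.8 to 293.2), and macrophage and myeloid markers in 7 of 8 (median 0.12, sums 4539 to 5341 against 4971 to 6053). All 4 progenitor markers with a probe set were positive (median 0.39, sums 1815 to 3087 against 2404 to 3306). Brown fat genes were positive in 5 of 5 (median 1.10, sums 1456 to 7966 against 6386 to 10630), skeletal muscle genes negative in 6 of 6 (median -1.55, sums 146.9 to 2042 against 90.7 to 166.8), and nerve and Schwann cell genes negative in 4 of 4 (median -1.37, sums 722.5 to 2494 against 173.0 to 1579). Several of these counts turned on wild-type mother 2. Without it, 2 of 6 skeletal muscle genes were positive (median -0.44), as were 4 of 8 macrophage and myeloid markers (median 0.01), 8 of 9 thymic epithelial markers (median 0.44), 3 of 4 progenitor markers (median 0.43) and 5 of 7 natural killer and innate lymphoid markers (median 0.08). Endothelial markers went from 5 of 7 positive (median 0.08) to 2 of 7 (median -0.13), and smooth muscle markers from 1 of 7 (median -0.07) to 2 of 7 (median -0.09). The B cell, brown fat and nerve counts kept their values of 4, 5 and 0, with medians of 0.26, 1.80 and -1.45. Leaving out the 2 brightest genes of each of these lists gave sums that overlapped, except for nerve and Schwann cell genes. There the sums without Mbp and Th were 260.5 to 405.7 against 28.2 to 149.6, lower without overlap. The part of any of these cell types in the differences of Bcl11b, Satb1 and Myb was not tested.

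**Figure D4:**
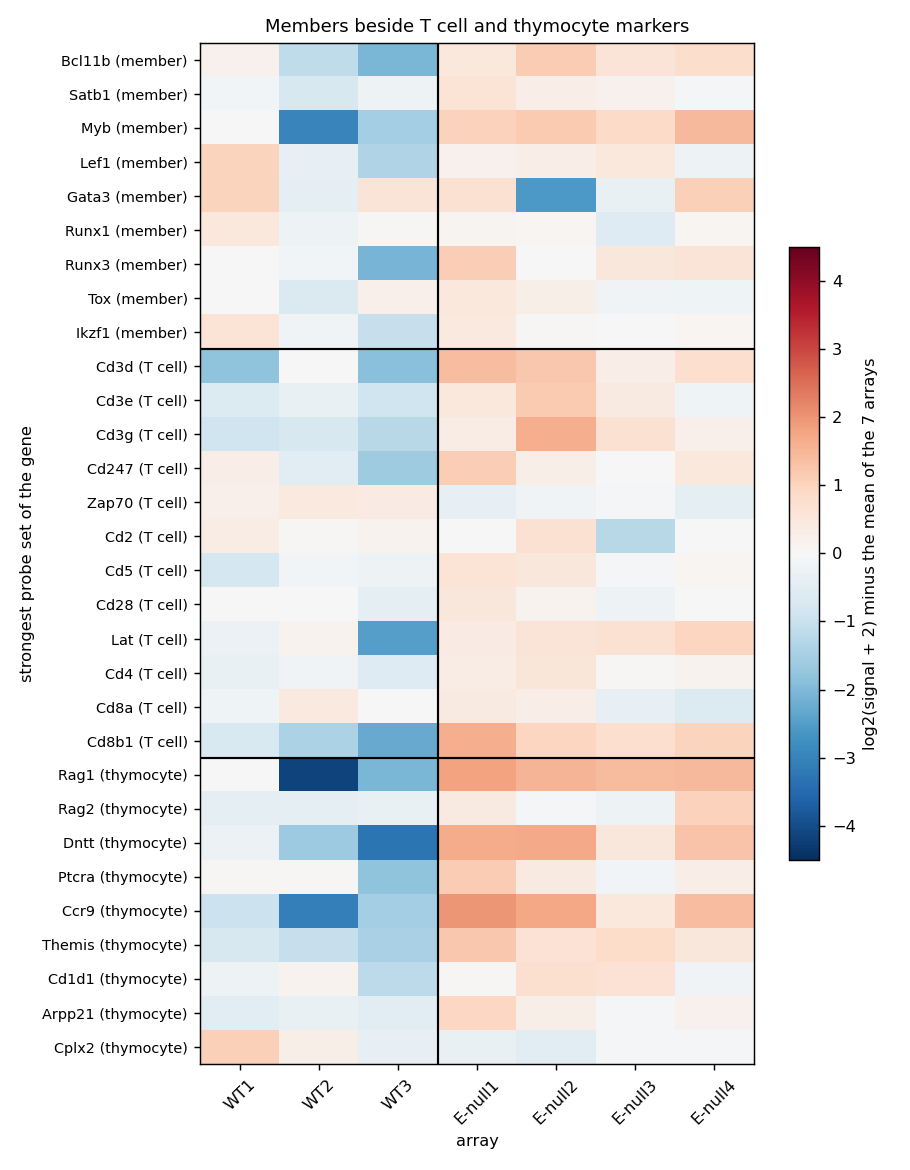
Log2(signal + 2) minus its mean over the 7 arrays, for the strongest probe set of each measured gene and of the T cell and thymocyte markers (rows) on each array (columns). Myb, Rag1, Dntt and Ccr9 are lowest on WT2 or WT3 and above their means on all 4 ApoE-null mother arrays, while Gata3, Runx1 and Zap70 do not share that order.

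A wider list of regulators of T cell development held about as many negative as positive differences. Of 40 genes, 38 had a probe set, 18 with a positive and 20 with a negative difference, and the median was -0.08 on their strongest probe sets. Over all 45037 probe sets, 51.3% were positive. The filter was passed by 32, of which 0 passed the limma test after adjustment; 2 were higher and 5 lower at an unadjusted p under 0.05, where 4.3% of all tested probe sets were higher and 3.96% lower. Without wild-type mother 2, 17 were positive and 21 negative, with a median of -0.11. With all 7 arrays, the 4 highest of the 32 past the filter were Themis (1.88), Lmo2 (0.48), Egr3 (0.48) and Tox2 (0.31). Themis, a signalling protein of thymocyte selection, is also among the thymocyte markers. Lmo2, which bridges factors in blood progenitors and endothelium, read 930.5, 710.2 and 908.0 against 1034.5, 1214.8, 1178.2 and 1296.1, without overlap. The 4 lowest of the 32 were the corepressor Tle3 (-0.72), the E protein inhibitors Id2 (-0.59) and Id3 (-0.54), and Nfatc1 (-0.45). Tle3, a partner of TCF and LEF factors, read 695.1, 556.2 and 754.7 against 305.2, 406.4, 405.1 and 516.1, also without overlap. Cbfb, the shared partner of the Runx proteins, had a difference of 0.28, and Notch1, the receptor that starts T lineage entry, of -0.33. On all 7 arrays, 32 of the 38 were above background. Several read far above the T cell markers, such as Ctnnb1 (means of 7356 and 7713) and Zeb1 (3654 and 3951). The cells that gave these signals were not identified, so the balance of signs is not a reading of T lineage RNA.

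**Figure D5:**
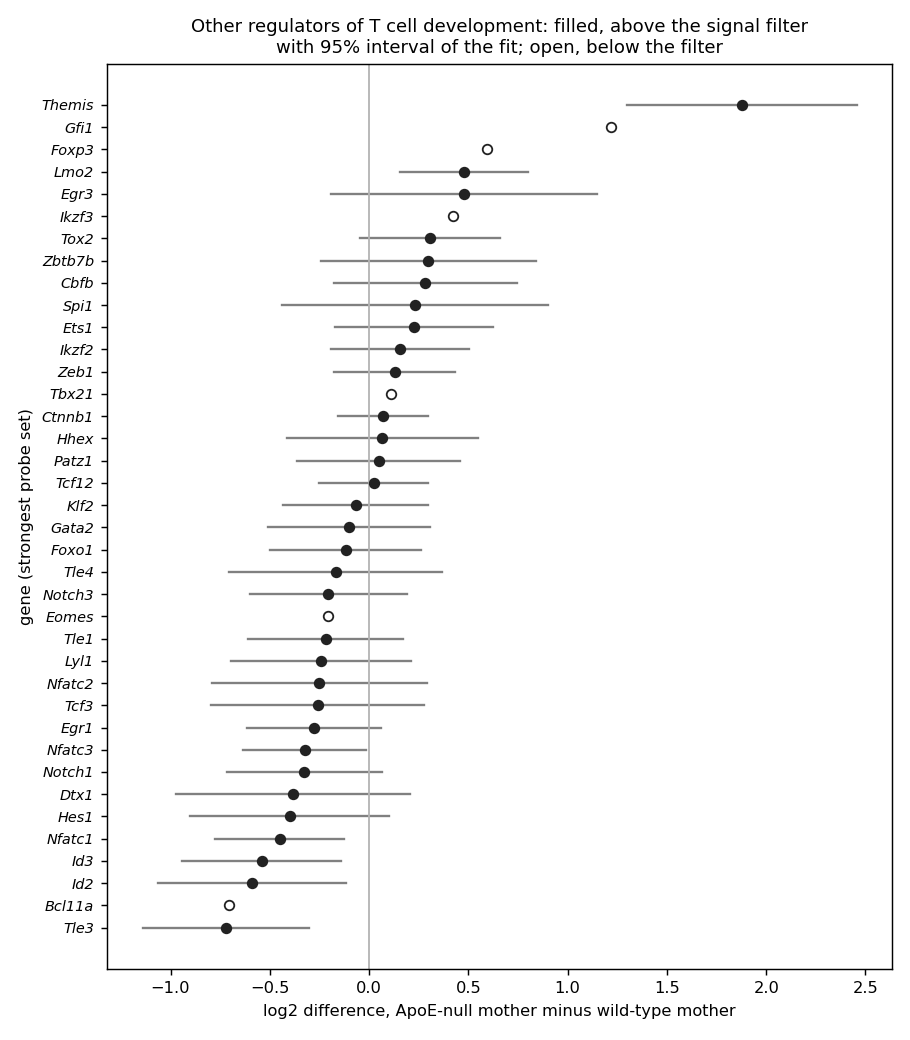
Log2 difference (ApoE-null mother minus wild-type mother) of the strongest probe set of 38 other regulators of T cell development, ordered by value. Filled points passed the signal filter and carry the 95% interval of the limma fit; Themis lies at 1.88, and the other filled points lie between -0.72 and 0.48.

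For each measured gene, the 3 genes with the highest Pearson r over the 7 arrays were taken from 12705 genes above the filter. Myb was followed most closely by Rag1 (r = 0.992), then by Atp5b (0.984) and Saal1 (0.980). Bcl11b was most like the sterol demethylase gene Cyp51 (0.979), Edrf1 (0.972) and Dntt (0.968), which adds bases at antigen receptor joints. Satb1 was most like Cd24a (0.987), which encodes a surface antigen of immature lymphocytes, and then Hic2 (0.978) and Syt7 (0.972). Lef1 was most like Mpeg1 (0.970), a macrophage gene, and Ikzf1 most like Aldh1l1 (0.982). Gata3, Runx1, Runx3 and Tox were most like Pigs (0.980), Ifitm10 (0.956), Ramp3 (0.985) and Mm2pr (0.971). These are descriptions over 7 points that share the group difference and the array scaling, and every gene found partners at such values, the lowest third-ranked r being 0.943 for Runx1.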

How the data were processed

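Deposited values were linear MAS5 signal intensity per probe set for 7 arrays, made by the authors with GCOS per the submitters' processing notes; their versions were not stated there. Per the labels, RNA was amplified in 2 cycles from oligo-dT, which favours 3 prime ends. The 2% trimmed mean of each array was 200.0, so the authors' scaling was kept. Of 45101 probe sets, 64 controls were left out and 34958 had 1 gene symbol in GEO's platform annotation. Log2(signal + 2) was modelled in limma 3.58.1 (R 4.3.3) by lmFit and eBayes, trend included, on 27027 probe sets whose mean signal exceeded the 40th percentile (23.6), with Benjamini-Hochberg adjustment and a threshold of 0.05. Depth has no meaning for arrays, and their number, 3 and 4, limits the precision. The fit was tested on simulated data. A gene was represented by its probe set with the highest mean signal. The genes, lists and promoter motifs were chosen with earlier results of these data known. Of the regulators, the 4 highest and 4 lowest above the filter were named. RefSeq promoter windows are of GRCm38.p6; the build behind the array annotation was not used. Alternatives were a pseudocount of 16, no filter, quantile normalization, no trend, the median over probe sets and each array left out. The count of called probe sets of these genes, the marker and regulator counts without wild-type mother 2, and the sums without the brightest markers were added after seeing the data.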

Additional observations from a re-analysis of the deposited data

Results flagged for a closer look

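On Runx1 probe set 1422864_at, ApoE-null mother 3 had a signal of 46.1 where the other 3 arrays of its group had 73.4 to 75.1. On the log2(signal + 2) scale the gap was 0.953 of the range of the group, above Dixon's 95% critical value for 4 samples, and no other of the 28 probe sets passed that value on this scale. On linear signals Bcl11b probe set 1438784_at passed it as well, with ApoE-null mother 3 at 28.3 and a gap of 0.842 of the range. Chance flags about 1 in 20 groups.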

How the results depend on the processing

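The count of probe sets called over the whole array was 1, and was 2 with quantile normalization, 0 without an intensity trend, and 0 to 18 when single arrays were left out. Called probe sets of the T lineage genes numbered 0 under all settings of the fit, and 0 to 2 when single arrays were left out, the 2 being Bcl11b and Myb without wild-type mother 1. That count was added after seeing the data. The cause of these changes was not tested. The count of positive probe sets was 17 to 23 and the median log2 difference 0.21 to 0.60 over the alternatives run, each within 1.5 times the count or 1 SD between arrays of the main value. For the strongest probe sets, 88 of 90 alternative values stayed within 1 SD. The exceptions were Myb with a pseudocount of 16 (1.67) and Lef1 as the median of its probe sets (-0.49). The sign did not turn under any alternative for Bcl11b, Satb1, Myb and Runx3, and it turned under 1 or 2 alternatives for Lef1, Gata3, Runx1, Tox and Ikzf1. Signals near background limit Myb, Runx3, Gata3 and the weaker Bcl11b probe sets. No paired analysis was possible because the sample titles number the arrays in 1 running series across the groups and name no pairs. The array numbers used here count within each group and do not mark pairs.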
